A study of Mus musculus with 24 samples.

Results

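Hepcidin, its paralog and 7 further genes of iron handling were followed across 24 mouse liver RNA-seq libraries. They were taken by symbol: Hamp and its paralog Hamp2, Bmp6, Hfe, Tfr2, Tfrc, Slc40a1, Fth1 and Ftl1, 9 rows of the 56941 in the table. All 9 passed the filter on low counts, which kept 20514 genes. The livers came from mice with and without BMAL1, the activating transcription factor of the circadian clock. Global knockouts (KO, Bmal1-/-) were compared with wild-type mice (WT, Bmal1+/+), both bred from Bmal1+/- parents on C57BL/6J. Liver-specific knockouts (LKO, Alb-Cre; Bmal1 f/f) were compared with floxed mice that carried no Cre (F, Bmal1 f/f). Alb-Cre acts chiefly in hepatocytes, and loss of the gene in other liver cells of LKO mice was not measured here. Livers were taken at circadian time CT14, early in the subjective night, and at CT2, early in the subjective day, with 3 libraries in each of the 8 groups. The labels give neither age nor sex and do not say whether replicates were separate animals. The p-values then measure only the spread between these samples, which may be technical.

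Hepcidin is a peptide hormone made by hepatocytes that lowers blood iron: it blocks and degrades ferroportin, the only known cellular iron exporter, which Slc40a1 encodes. The liver senses iron through BMP6, a ligand released by its endothelial cells, and through HFE and transferrin receptor 2 on hepatocytes, and these inputs converge on SMAD signalling to the Hamp promoter. Inflammation raises hepcidin by a separate route, through IL-6 and STAT3. Cells take up transferrin-bound iron through transferrin receptor 1, the product of Tfrc, and store iron in ferritin, built from heavy (Fth1) and light (Ftl1) chains. Iron regulatory proteins bind short hairpins in these messengers: in the 3′ UTR they stabilise Tfrc RNA, and in the 5′ UTR they block translation of ferritin and ferroportin.

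The hairpin sequences are shown because they divide the genes into those whose RNA level is under such control and those whose translation is. The pattern searched was CNNNNNCAGTGNNNNNN with 5 paired bases in the stem (G-T pairs allowed) and no G as the last base of the loop. It occurred in a UTR of 123 of 21877 coding genes (0.562%) in GENCODE M21 on build GRCm38. Tfrc held 4 matches in its 3′ UTR, and Slc40a1, Fth1 and Ftl1 held 1 each in the 5′ UTR. The transcripts of Hamp, Hamp2, Hfe, Tfr2 and Bmp6 held none. Capitals mark the 6-base loop.
Tfrc, chr16:32631225-32631241, plus strand: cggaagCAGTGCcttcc
Tfrc, chr16:32631604-32631620, plus strand: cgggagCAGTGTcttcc
Tfrc, chr16:32631669-32631685, plus strand: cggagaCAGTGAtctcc
Tfrc, chr16:32631716-32631732, plus strand: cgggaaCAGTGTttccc
Slc40a1, chr1:45925471-45925487, minus strand: cagctaCAGTGTtagct
Fth1, chr19:9982738-9982754, plus strand: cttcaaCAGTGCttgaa
Ftl1, chr7:45459785-45459801, minus strand: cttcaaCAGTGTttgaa
The ferritin hairpins shared the same stem and differed in the last base of the loop.

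The promoters of Hamp and Hamp2 are shown because the genes are near copies whose RNA levels are compared in the same livers. The RefSeq windows (build GRCm38.p6) hold the bases just before each start, and capitals mark GGCGCC, the type of element through which BMP and SMAD signals act on Hamp, and TTCNNNGAA, the STAT type.
Hamp, chr7:30944033-30944172, minus strand: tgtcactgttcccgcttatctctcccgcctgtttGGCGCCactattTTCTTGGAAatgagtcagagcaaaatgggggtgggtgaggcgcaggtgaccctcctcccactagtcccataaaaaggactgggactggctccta
Hamp2, chr7:30924182-30924321, minus strand: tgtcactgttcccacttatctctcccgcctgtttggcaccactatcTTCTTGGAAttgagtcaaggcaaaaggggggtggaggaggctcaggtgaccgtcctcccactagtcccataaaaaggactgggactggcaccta
The windows were identical at 128 of 140 aligned bases (91.4%). One of the 12 differences, G38A counted from the 5′ end of the printed window with the Hamp base first, lies within the GGCGCC element, so Hamp2 lacks that exact string. Both strands of the 250 bases before each start were searched in all 32851 RefSeq windows. GGCGCC was found in 9.59% of them, among the 9 genes in Hamp and in 1 of the windows of Tfrc. TTCNNNGAA was found in 7.02% of windows, here in Hamp and Hamp2. The E-box CACGTG, the sequence BMAL1 and CLOCK bind, was found in 6.02% of windows and here in Bmp6 alone. TGAGTCA, the AP-1 type, was found in 4.46% of windows, here in Hamp, Hamp2 and Hfe. There was no window for Slc40a1 in the table, and a match is a string of letters, not a site shown to be bound. Matches of different motifs did not overlap in the windows of these genes.

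Some libraries stood apart before any iron gene was considered. Summed pancreatic acinar markers reached 845 CPM (counts scaled to library total by TMM) in F CT14 replicate 3 and 3084 CPM in F CT2 replicate 3, against 25.0 to 102 CPM in the other libraries. The Y-linked gene Ddx3y was at 9.61, 8.15 and 3.86 CPM in KO CT2 replicate 1, LKO CT2 replicate 3 and F CT2 replicate 3, and at 25.7 CPM or more in every other library. The sum of interferon-stimulated genes was 2906 CPM for KO CT14 replicate 3, against at most 402 CPM elsewhere. Spermatid transcripts summed to 8.67 to 35.2 CPM in the F and LKO libraries and to 10.3 and 9.43 CPM in KO CT14 replicate 1 and KO CT2 replicate 2. In the remaining KO libraries and in all WT libraries the sum was 0.95 to 2.52 CPM. The targeted gene followed the labels at CT2, where Bmal1 was at 7.15 to 7.57 CPM in KO livers against 30.7 to 33.8 CPM in WT livers, and at 6.57 to 7.91 CPM in LKO livers against 26.6 to 29.8 CPM in F livers. At CT14 the low level of Bmal1 in the controls left knockout and control libraries overlapping. All 10 hepatocyte markers were detected, and total estimated counts ran from 88995300 to 131545000 per library.

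Compared per length, ferritin dominated the 9 genes. Median TPM over the 24 libraries was 5991 for Ftl1, 1866 for Fth1, 1028 for Hamp, 250 for Tfr2, 62.3 for Slc40a1, 26.1 for Hfe, 19.8 for Hamp2, 11.6 for Tfrc and 2.40 for Bmp6. The ratio of Ftl1 to Fth1 in TPM stayed between 2.72 and 4.40, with a median of 3.31. The ratio of Hamp to Hamp2 ran from 9.59 to 203, with a median of 57.3. Tfr2 exceeded Tfrc by 10.8 to 159 times, with a median of 23.7. Between the highest and the lowest library, CPM differed 81.7-fold for Hamp2, 14.1-fold for Tfrc and 11.2-fold for Hamp, against 1.74-fold to 3.67-fold for the other 6 genes. Much of that spread lay within groups. The mean within-group SD of log2 CPM was 1.11 for Hamp2, 0.92 for Hamp and 0.63 for Tfrc, above the median of 0.46 over all genes tested, whereas it was 0.20 for Fth1 and 0.17 for Hfe. In these bulk samples, fewer cells of a type and less RNA per cell cannot be told apart.

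**Figure D1:**
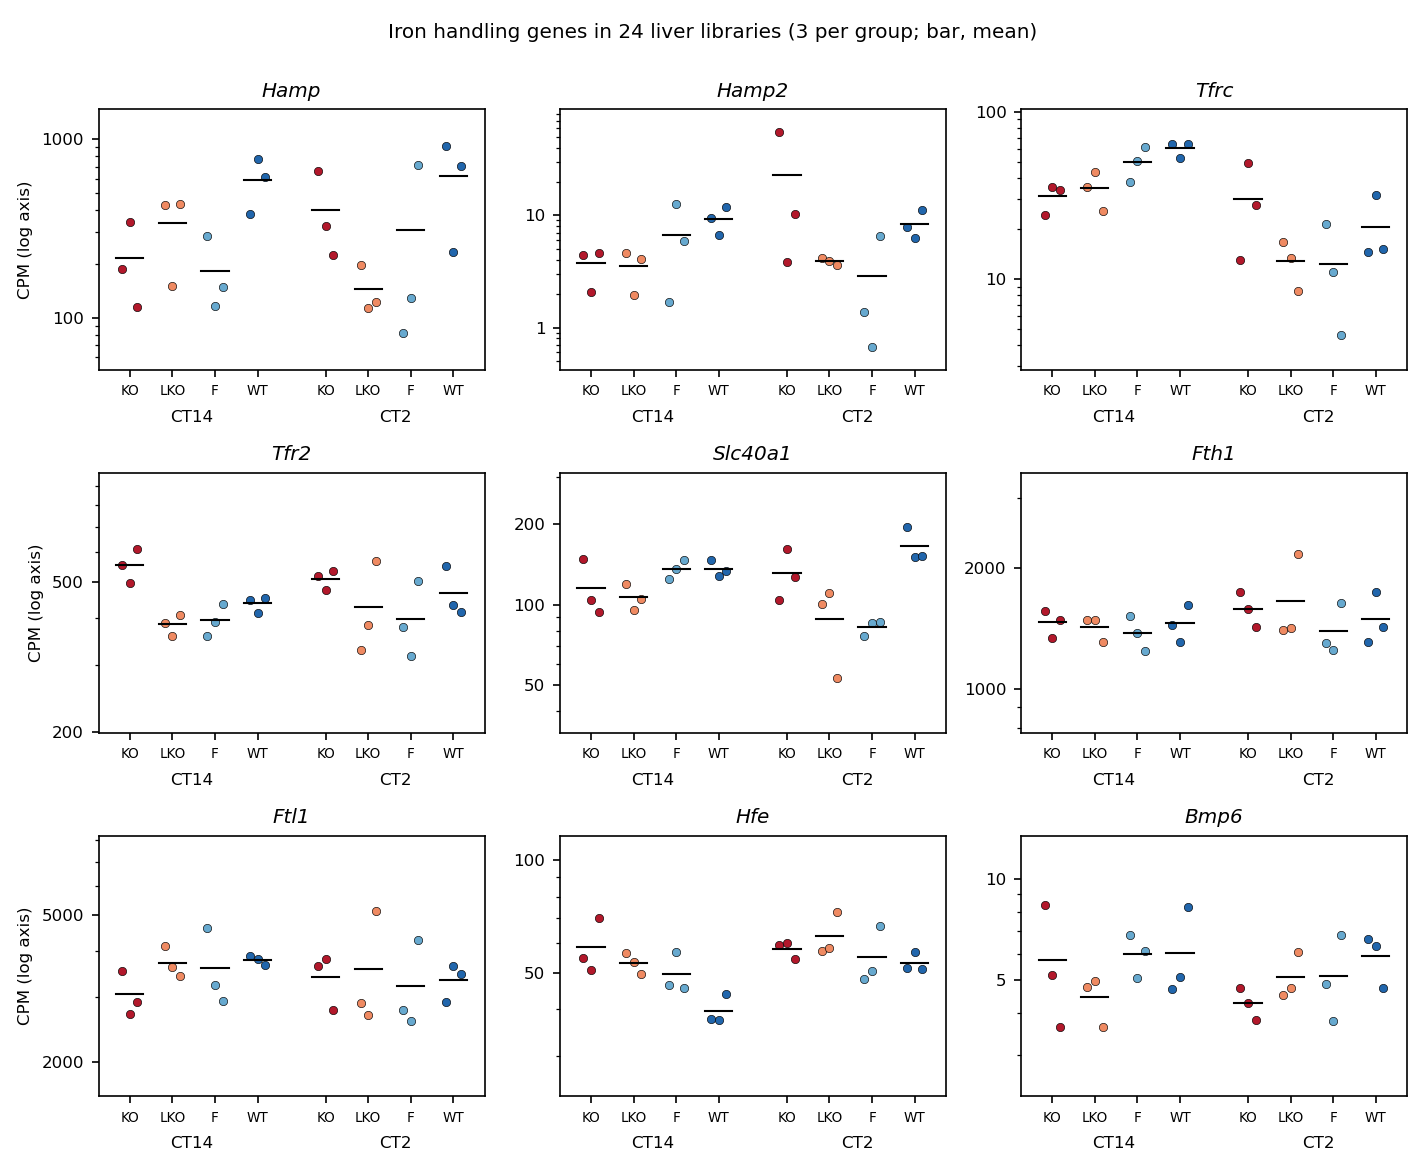
Level of each gene in every library, in TMM-scaled CPM on a log axis, with KO, LKO, F and WT groups at CT14 on the left and at CT2 on the right of each panel. Points are libraries and bars are means of 3. Hamp, Hamp2 and Tfrc spread widely within groups, whereas Hfe and Fth1 stay close, and Hfe is lowest in the WT libraries at CT14.

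In the global knockout at CT14, every Hamp value lay below every wild-type value, but the fitted difference did not pass the test across all genes. Hamp was at 186, 344 and 114 CPM in KO livers at CT14, against 378, 776 and 612 CPM in WT livers. The groups did not overlap. The log2 fold change was -1.45 ± 0.72 (SE; 95% interval -2.97 to 0.06), with an adjusted p of 0.315 by edgeR's quasi-likelihood test, Benjamini-Hochberg adjusted over all genes as throughout. At CT2, Hamp was at 659, 324 and 225 CPM in KO livers, against 915, 232 and 709 CPM in WT livers. These groups overlapped, and the log2 fold change was -0.62 ± 0.71 (adjusted p = 0.962). Over both times it was -1.04 ± 0.51 (adjusted p = 0.296). In the authors' deposited table for the CT14 comparison, the log2 fold change of Hamp was -1.45 with an adjusted p of 0.00146. DESeq2 run here on all 24 libraries gave the same -1.45 with an adjusted p of 0.237, so the call differed between fits while the size did not.

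The liver-specific knockout showed no such separation. Hamp was at 426, 149 and 434 CPM in LKO livers at CT14, against 286, 116 and 148 CPM in F livers, a log2 fold change of 0.88 ± 0.71 (adjusted p = 0.834). At CT2 it was at 196, 112 and 123 CPM in LKO livers, against 81.7, 129 and 715 CPM in F livers, a log2 fold change of -1.10 ± 0.72 (adjusted p = 0.757). Both pairs overlapped, and the value of 715 CPM belonged to F CT2 replicate 3, the library with pancreatic transcripts and little Ddx3y. Without that library the CT2 difference was 0.47. The difference between the KO effect and the LKO effect, averaged over both times, was -0.92 ± 0.71 (adjusted p = 0.899), and without F CT2 replicate 3 it was -1.71 (adjusted p = 0.339). It rested on wide intervals and does not show that the knockouts act alike. Time made no difference to Hamp that passed the test. CT14 over CT2 was -0.91 ± 0.71 in KO livers, -0.07 ± 0.71 in WT livers, 1.23 ± 0.72 in LKO livers and -0.75 ± 0.71 in F livers. Without F CT2 replicate 3 the F value was 0.80, the other way, and fits without 1 library gave -0.46 to 0.32 in WT livers. In the authors' deposited table for LKO, the time difference of 1.23 had an adjusted p of 0.0223.

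The control genotypes were also set against each other. Ordered by mean, Hamp was highest in WT at CT2 and WT at CT14, then KO at CT2, LKO at CT14, F at CT2, KO at CT14, F at CT14 and LKO at CT2, and every pair of neighbours in that order overlapped. F over WT, averaged over both times, had a log2 fold change of -1.34 ± 0.51, with an unadjusted p of 0.0167 and an adjusted p of 0.206. Without F CT2 replicate 3 it was -2.13 and passed the threshold (adjusted p = 0.0296). F and WT mice came from different crosses, and a difference of cross cannot be told apart from one of the floxed allele.

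Hamp2 is a second hepcidin gene of the mouse, whose peptide is not known to act on iron. It was at 4.45, 2.09 and 4.66 CPM in KO livers at CT14, against 9.39, 6.71 and 11.9 CPM in WT livers, without overlap. The log2 fold change was -1.32 ± 0.85 (adjusted p = 0.470), whereas the authors' deposited table gave -1.33 with an adjusted p of 0.00186. Its CT2 values were 55.0, 3.87 and 10.4 CPM in KO livers, against 7.86, 6.34 and 11.1 CPM in WT livers, with a log2 fold change of 1.45 ± 0.85 (adjusted p = 0.695). The groups overlapped, and the highest value came from KO CT2 replicate 1, a library with little Ddx3y. Without it the CT2 difference was -0.24. The time difference of Hamp2 in KO livers, a log2 fold change of -2.63 ± 0.88, did not pass either (unadjusted p = 0.00801, adjusted p = 1), and without the same library it was -0.93. At CT14 it was at 1.96 to 4.57 CPM in LKO livers, against 1.68 to 12.6 CPM in F livers. At CT2 it was at 3.63 to 4.15 CPM in LKO livers, against 1.38, 0.67 and 6.5 CPM in F livers, and both pairs overlapped. The log2 fold change of LKO over F was -0.93 ± 0.84 at CT14 and 0.45 ± 0.84 at CT2 (adjusted p = 0.880 and 0.991). The value of 6.5 CPM belonged to F CT2 replicate 3, the library with pancreatic transcripts. The F values of 1.38 and 0.67 CPM lay below every LKO value. Fits without 1 library gave -0.02 to 1.95 at CT2. Across the 24 libraries, which share library depth and genotype, Hamp and Hamp2 correlated with Pearson's r of 0.51 and Spearman's rho of 0.49 in log2 CPM. Reads of these near copies could be split between them in counting, so the level of Hamp2 is uncertain.

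**Figure D2:**
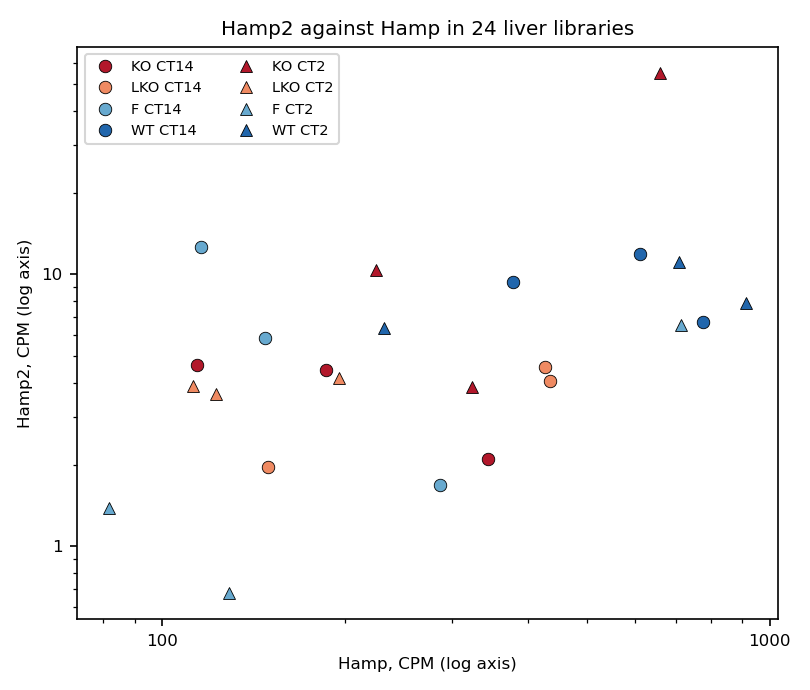
Hamp2 against Hamp in each of the 24 libraries, in TMM-scaled CPM on log axes, with genotype by colour and CT14 as circles, CT2 as triangles. KO CT2 replicate 1 stands alone at 55.0 CPM of Hamp2, and F libraries at CT2 hold both the lowest Hamp2 and a Hamp value of 715 CPM.

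Among the genes upstream of hepcidin, Hfe rose in global knockouts at CT14. Hfe encodes the hemochromatosis protein, an MHC class I-like molecule that binds transferrin receptor 1 and takes part in iron sensing. It was at 54.7, 50.9 and 70.2 CPM in KO livers at CT14, against 37.6, 37.4 and 43.8 CPM in WT livers. The groups did not overlap, and the log2 fold change was 0.56 ± 0.15 (95% interval 0.25 to 0.88, adjusted p = 0.0279). The call was lost without any 1 of 3 libraries (WT CT14 replicates 1 or 2, or KO CT14 replicate 3), where the adjusted p reached 0.181. KO CT14 replicate 3, the library with high interferon-stimulated genes, held the highest Hfe value. At CT2, Hfe was at 59.2, 59.9 and 54.5 CPM in KO livers, against 51.6, 56.9 and 51.3 CPM in WT livers. These overlapped, with a log2 fold change of 0.12 ± 0.15 (adjusted p = 0.971).

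Hfe in WT livers was lower in every library at CT14 than at CT2, with a log2 fold change of -0.43 ± 0.15 (adjusted p = 0.172). In KO livers the time difference was 0.02 ± 0.15 (adjusted p = 1). The difference between these time effects was 0.44 ± 0.21 (unadjusted p = 0.0474, adjusted p = 0.535). WT at CT14 was the lowest of the 8 groups and did not overlap with F at CT14, the next. LKO livers ran from 49.7 to 56.6 CPM at CT14, against 45.6 to 57.0 CPM in F livers, and from 57.1 to 72.7 CPM at CT2, against 48.0 to 66.7 CPM in F livers. The LKO effect was 0.10 ± 0.15 at CT14 and 0.19 ± 0.15 at CT2 (adjusted p = 0.980 and 0.853).

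Tfr2, the iron-sensing receptor of hepatocytes, was at 498 to 612 CPM in KO livers at CT14, against 415 to 454 CPM in WT livers. The groups did not overlap, but the log2 fold change of 0.34 ± 0.18 did not pass (adjusted p = 0.371). At CT2 the ranges were 478 to 535 CPM in KO livers and 417 to 551 CPM in WT livers, with 0.13 ± 0.18 (adjusted p = 0.989). LKO livers were at 359 to 408 CPM at CT14, against 360 to 438 CPM in F livers. At CT2 they were at 331 to 570 CPM, against 317 to 503 CPM in F livers, with overlap at both times. Bmp6, which in liver comes chiefly from sinusoidal endothelium, had the lowest median TPM of the genes. At CT14 it was at 3.63 to 5.0 CPM in LKO livers, against 5.10 to 6.81 CPM in F livers, where LKO lay below F without overlap at a log2 fold change of -0.43 ± 0.28 (adjusted p = 0.718). Liver endothelium markers summed to 569 to 627 CPM in those LKO livers, against 580 to 740 CPM in the F livers, and their part in the difference was not tested. Bmp6 was at 3.65 to 8.39 CPM in KO livers at CT14, against 4.73 to 8.24 CPM in WT livers, and at 3.81 to 4.76 CPM at CT2, against 4.74 to 6.62 CPM. Neither pair separated.

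Tfrc, the main receptor of iron uptake, passed the test by time in F livers and by genotype in no comparison. In F livers it rose at CT14, where it was at 37.9, 50.4 and 61.2 CPM, against 21.2, 11 and 4.59 CPM at CT2. The times did not overlap, and the log2 fold change was 2.02 ± 0.49 (95% interval 1.0 to 3.04, adjusted p = 0.0290). This call held in 1 of 6 fits without a library, the one without F CT2 replicate 1, and the adjusted p ran up to 0.115. With both F libraries that held pancreatic transcripts left out it was 1.46 (adjusted p = 0.270). In WT livers Tfrc was at 64.2, 52.7 and 64.5 CPM at CT14, against 14.4, 32 and 15.1 CPM at CT2. In LKO livers it was at 35.7, 43.7 and 25.3 CPM at CT14, against 16.7, 13.4 and 8.52 CPM at CT2. In both, the times did not overlap, with log2 fold changes of 1.56 ± 0.48 (adjusted p = 0.105) and 1.44 ± 0.48 (adjusted p = 0.180), neither past the threshold by edgeR. DESeq2 on the same 24 libraries gave adjusted p of 0.0158 for WT and 0.0382 for LKO, and the authors' deposited tables gave 7.69e-06 and 0.000107.

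In KO livers Tfrc was at 24.2, 35.6 and 34.1 CPM at CT14, against 12.9, 49.2 and 27.8 CPM at CT2. The times overlapped, and the log2 fold change was 0.06 ± 0.47 (95% interval -0.92 to 1.04, adjusted p = 1). It ran from -0.30 to 0.62 in fits without 1 library. The difference between the time effects of KO and WT was -1.50 ± 0.67 (unadjusted p = 0.0362, adjusted p = 0.488), and between those of LKO and F it was -0.58 ± 0.66 (adjusted p = 1). Without 1 library, the KO and WT value ran from -1.97 to -0.94. So the smaller time difference in KO was not established against WT by this test. At CT14 every KO library lay below every WT library, with a log2 fold change of -0.95 ± 0.47 (adjusted p = 0.312), and the authors' deposited table gave -0.95 with an adjusted p of 6.68e-05. When only the KO and WT libraries at CT14 entered the edgeR fit, the value was -0.94 with an adjusted p of 0.0203. At CT2 the KO effect was 0.55 ± 0.47 (adjusted p = 0.90). The LKO effect was -0.51 ± 0.47 at CT14 and 0.07 ± 0.47 at CT2 (adjusted p = 0.881 and 1).

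**Figure D3:**
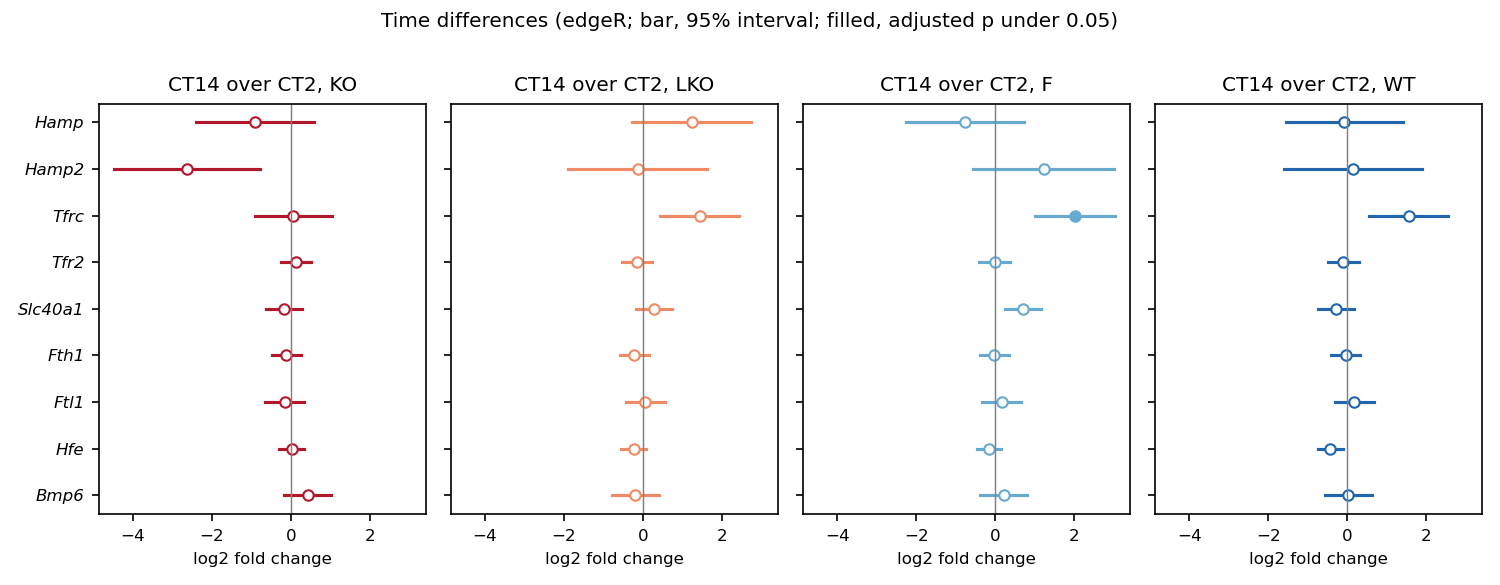
Log2 fold change of CT14 over CT2 for each gene in KO, LKO, F and WT livers, from the edgeR fit to 24 libraries, with 95% intervals. Filled points have an adjusted p under 0.05. Tfrc lies at 0.06 in KO livers and at 1.44, 2.02 and 1.56 in LKO, F and WT livers, and its F value alone is filled.

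Slc40a1, the exporter that hepcidin acts on, passed the test in no comparison. It was at 148, 104 and 93.9 CPM in KO livers at CT14, against 147, 128 and 134 CPM in WT livers. At CT2 it was at 104, 162 and 127 CPM in KO livers, against 195, 151 and 152 CPM in WT livers. Both pairs overlapped, with log2 fold changes of -0.24 ± 0.22 and -0.34 ± 0.22 (adjusted p = 0.666 and 0.749). In LKO livers it was at 120, 95.8 and 105 CPM at CT14, against 124, 136 and 147 CPM in F livers, lower without overlap but not past the threshold (-0.35 ± 0.22, adjusted p = 0.685). The CT2 values were 101, 111 and 53.1 CPM in LKO livers, against 76.5, 85.5 and 86.3 CPM in F livers, which overlapped (0.09 ± 0.22). In F livers, CT14 lay above CT2 in every library, at 0.71 ± 0.22 (adjusted p = 0.0916), whereas WT livers lay the other way, at -0.28 ± 0.22 (adjusted p = 0.742). The difference between these time effects of F and WT was not tested. F over WT, averaged over both times, was -0.50 ± 0.16 (unadjusted p = 0.00403, adjusted p = 0.0942), and with the 3 libraries low in Ddx3y left out it passed (adjusted p = 0.0252). Slc40a1 is also strong in Kupffer cells, which recycle the iron of red cells. Their markers summed to 607 to 1199 CPM in F livers at CT14, against 582 to 980 CPM in WT livers, and to 491 to 1542 CPM at CT2, against 646 to 1022 CPM in WT livers. Their part in the difference was not tested.

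No difference in a ferritin gene passed the test. Fth1 was at 1341 to 1568 CPM in KO livers at CT14, against 1311 to 1619 CPM in WT livers, and at 1431 to 1749 CPM at CT2, against 1312 to 1747 CPM. The KO effect was 0.01 ± 0.17 at CT14 and 0.08 ± 0.17 at CT2 on the log2 scale, and the LKO effect was 0.05 ± 0.17 and 0.25 ± 0.17. The 95% interval of the KO effect at CT14 ran from -0.35 to 0.37, so changes larger than that lie outside it. Ftl1 was at 3541, 2698 and 2906 CPM in KO livers at CT14, against 3886, 3795 and 3672 CPM in WT livers, without overlap and with a log2 fold change of -0.31 ± 0.24 (adjusted p = 0.580). At CT2 it was at 2764 to 3812 CPM in KO livers, against 2907 to 3642 CPM in WT livers. LKO livers were at 3420 to 4124 CPM at CT14, against 2924 to 4635 CPM in F livers, and at 2675 to 5145 CPM at CT2, against 2583 to 4289 CPM. Ferritin is set largely at translation, which RNA levels do not show. The genes most like Ftl1 across the 24 libraries were its processed copies Ftl2-ps (r = 0.95) and Ftl1-ps2 (r = 0.92), so reads may be shared and the level of Ftl1 is uncertain. How many reads are shared was not measured.

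The 3 libraries low in Ddx3y lay at the same end of their groups for some of the iron genes. Within each of their groups, KO, LKO and F at CT2, they held the lowest Tfrc (12.9, 8.52 and 4.59 CPM), the highest Fth1 (1749, 2165 and 1638 CPM) and the highest Bmp6 (4.76, 6.08 and 6.82 CPM). In LKO and F, but not in KO, they also held the highest Hfe (72.7 and 66.7 CPM), Tfr2 (570 and 503 CPM) and Ftl1 (5145 and 4289 CPM). These genes were named because of their values, and the share of all genes placed so was not counted. The 3 libraries were not alike in a second Y-linked gene. Kdm5d was at 11.8 CPM in KO CT2 replicate 1, against 11.4 and 13.8 CPM in the other KO libraries at CT2, and at 5.67 and 5.66 CPM in LKO CT2 replicate 3 and F CT2 replicate 3. The 5 sex-linked genes read, Xist among them, summed to 65.9, 26.1 and 16.6 CPM in the KO, LKO and F library, against 66.7 to 113 CPM in all others. The labels give no sex, these libraries were picked out by Ddx3y alone, and its part in these values was not tested.

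Set side by side, few of the 9 genes passed the test. In KO over WT at CT14, 1 of 9 was called, higher (Hfe), against 5.31% of all genes tested (3.15% higher), and 6 of 9 separated without overlap, against 25.9% of all genes. In the authors' deposited table for this comparison, 4 of the 9 had an adjusted p under 0.05: Hfe, higher, and Hamp, Hamp2 and Tfrc, lower. The 6 that separated were Tfr2 and Hfe, higher, and Hamp, Hamp2, Tfrc and Ftl1, lower. In KO over WT at CT2, 0 of 9 were called, against 0.517%, with 0 at an unadjusted p under 0.05 and 0 called by DESeq2, and 0 separated, against 14%. Averaged over both times, 0 of 9 were called, against 5.4%, with 1 at an unadjusted p under 0.05 (Hfe, 0.34 ± 0.11, adjusted p = 0.0629) and 1 called by DESeq2, again Hfe. In LKO over F, 0 of 9 were called at CT14, at CT2 or over both times, against 1.73%, 0.4% and 3.13% of all genes, with 0 at an unadjusted p under 0.05 and 0 called by DESeq2. The LKO and F libraries separated for 2 genes at CT14, Slc40a1 and Bmp6, both lower, against 23.6% of all genes, and for 0 at CT2, against 10.6%.

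**Figure D4:**
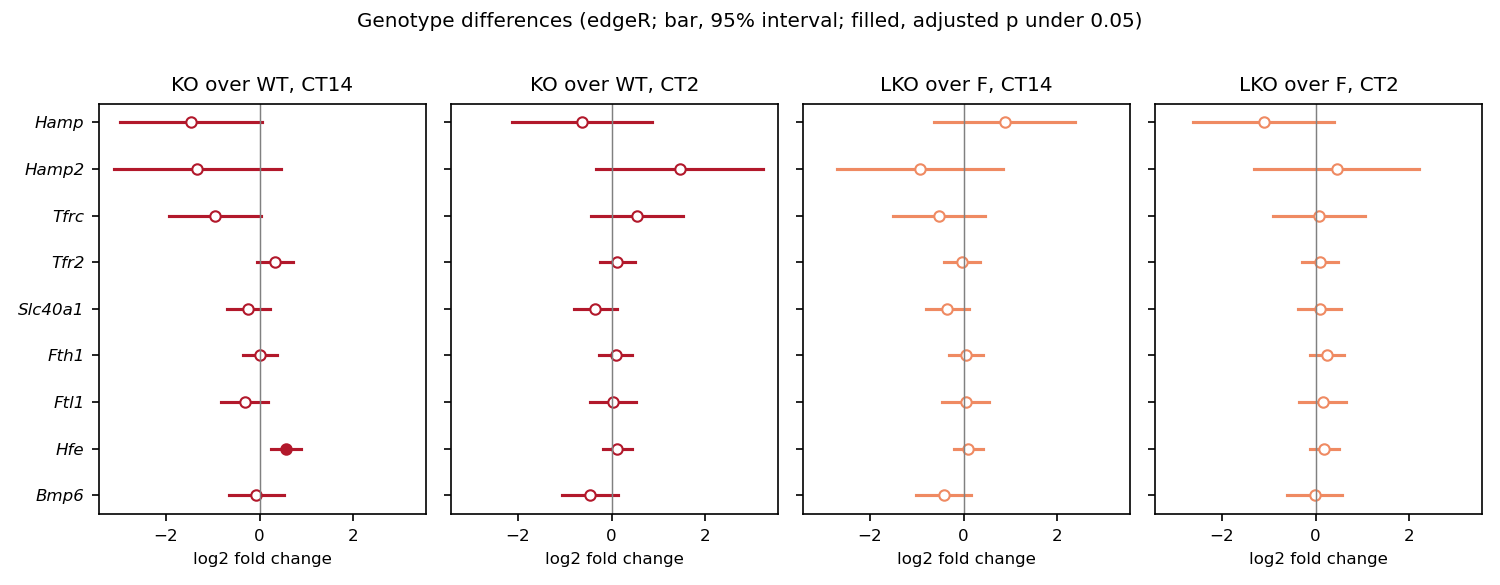
Log2 fold change of KO over WT and of LKO over F at CT14 and CT2 for each gene, from the edgeR fit to 24 libraries, with 95% intervals. Filled points have an adjusted p under 0.05. Hfe in KO over WT at CT14 (0.56) is the one filled point, and the intervals of Hamp, Hamp2 and Tfrc are several times as wide as those of Fth1 and Hfe.

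Over time, 1 of 9 was called in F livers, higher (Tfrc), against 2.66% of all genes (1.33% higher). There were 0 of 9 in KO livers, against 0%, 0 in WT livers, against 2.54%, and 0 in LKO livers, against 0.848%. The unadjusted p was under 0.05 for 1 gene in KO (Hamp2), 2 in WT (Tfrc and Hfe) and 1 in LKO (Tfrc), and DESeq2 called 0, 1 and 1. Libraries of the times separated for 0 genes in KO (7.63% of all genes), for 4 in WT (21%), for 2 in LKO (20.7%) and for 2 in F (19.2%). The WT genes were Tfrc and Ftl1, higher at CT14, and Slc40a1 and Hfe, lower. The LKO genes were Tfrc, higher, and Hfe, lower, and the F genes were Tfrc and Slc40a1, both higher. For the difference of time effects 0 of 9 were called in KO minus WT, against 0.799%, with 3 at an unadjusted p under 0.05 (Hamp2, Tfrc and Hfe), and 0 in LKO minus F, against 0.112%, with 0. For the KO effect minus the LKO effect 0 were called, against 0.107%, with 0 at an unadjusted p under 0.05, and for F over WT 0, against 2.54%, with 2 (Slc40a1 and Hamp). DESeq2 called 0 in each of these 4.

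Around the 9 genes, 108 further genes of iron and heme biology were read in 7 lists, of which 104 were tested. In KO over WT at CT14, 7 were called higher and 8 lower, where 5.31% of all genes were called and 3.15% were called higher. Among BMP and SMAD genes, 3 of 24 tested were called, against the same 5.31%. Smad9, a BMP-responsive receptor SMAD, fell to 6.86, 2.99 and 3.66 CPM in KO livers, against 11.1, 16.2 and 16.3 CPM in WT livers (-1.69 ± 0.45, adjusted p = 0.0298). Hjv, the BMP co-receptor hemojuvelin, rose to 69.7, 57.4 and 68.1 CPM in KO livers, against 37.4, 35.8 and 50.5 CPM in WT livers (0.66 ± 0.17, adjusted p = 0.0253). Fst, the secreted inhibitor follistatin, rose by 1.41 ± 0.39 (adjusted p = 0.0378). Each of these 3 calls was lost in 4 of the 6 fits without a library. The list's median log2 fold change was 0.02, against 0.01 over all genes tested. Over both times Smad9 (-1.32 ± 0.32), the SMAD target Id3 (-0.87 ± 0.22) and the ligand Bmp4 (-0.72 ± 0.19) fell (adjusted p = 0.0161, 0.0203 and 0.0274), calls lost in 1, 4 and 8 of 12 fits without a library. At CT2 Id2, another SMAD target, fell by 0.79 ± 0.17 (adjusted p = 0.0395), lost in 5 of 6 fits, and Hjv was not called. By time in WT livers, 2 of the 24 were called, both lower at CT14 than at CT2, against 2.54% of all genes. They were Hjv (-0.78 ± 0.17, adjusted p = 0.0136, lost in 3 of 6 fits) and Id2 (-1.22 ± 0.18, adjusted p = 0.000307, lost in 0 of 6). The KO over WT difference at CT14 and this time difference share the WT libraries at CT14. Of the 10 tested genes of the IL-6 and STAT3 route, 0 were called in KO over WT or in LKO over F at either time or over both. The shares of all genes called in KO over WT were 5.31% at CT14, 0.517% at CT2 and 5.4% over both. In LKO over F they were 1.73%, 0.4% and 3.13%. In the same KO livers at CT14, acute phase genes summed to 47710 to 56026 CPM, against 18093 to 22756 CPM in WT livers, and their part in the iron genes was not tested.

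Among genes of mitochondrial iron, Fdx1 and Glrx5 fell in KO over WT at CT14, and both calls held in every fit without 1 library. Fdx1, the ferredoxin that supplies electrons for iron-sulfur cluster and steroid chemistry, was at 77.7, 71.9 and 73.8 CPM in KO livers, against 135, 155 and 132 CPM in WT livers. The groups did not overlap, and it fell by 0.92 ± 0.13 (adjusted p = 0.000154). Glrx5, which passes on new iron-sulfur clusters, was at 88.9, 84.1 and 86.0 CPM in KO livers, against 132, 128 and 139 CPM in WT livers (-0.62 ± 0.13, adjusted p = 0.00491). Of the 22 tested genes of the list, 3 were called, against 5.31% of all genes, and the list's median was -0.09. In WT livers Fdx1 and Glrx5 were higher at CT14 than at CT2, by 0.74 ± 0.13 and 0.69 ± 0.13 (adjusted p = 0.00205 and 0.00345). Fdx1 was also higher at CT14 in F livers, by 0.58 ± 0.13 (adjusted p = 0.0161), a call lost in 4 of 6 fits without a library. The KO minus WT difference and the WT time difference share the WT libraries at CT14. None of the 22 was called in LKO over F at CT14, at CT2 or over both times, against 1.73%, 0.4% and 3.13% of all genes. Fdx1 in LKO livers at CT14 was at 77.7 to 91.2 CPM, against 97.1 to 113 CPM in F livers. Cytosolic aconitase Aco1, which is iron regulatory protein 1 when it lacks its cluster, fell by 0.57 ± 0.16 in KO over WT at CT14 (adjusted p = 0.0417). It was the 1 call among 9 tested genes of storage and chaperones, against 5.31% of all genes. That call was lost in all 6 fits without a library.

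Among plasma carriers, 1 of 8 was called higher and 1 lower in KO over WT, over both times and at CT14. Of all genes tested, 5.4% and 5.31% were called in these comparisons. Cp, the ferroxidase ceruloplasmin that helps load iron onto transferrin, was at 2112, 2193 and 2123 CPM in KO livers at CT14, against 884, 888 and 685 CPM in WT livers. Its level at CT2 was 1918, 1652 and 2468 CPM in KO livers, against 1257, 772 and 839 CPM in WT livers. No KO library overlapped with WT at either time, and over both times it rose by 1.23 ± 0.23 (adjusted p = 0.00246), also in every fit without 1 library. Cp is itself an acute phase gene. Alb, which binds heme among many ligands, fell by 0.87 ± 0.17 in KO over WT and by 0.97 ± 0.17 in LKO over F (adjusted p = 0.00269 and 0.00160). Hepatocyte markers, of which Alb is the largest, summed to 72956 to 92634 CPM in KO livers at CT14, against 102651 to 117061 CPM in WT livers. At CT2 the sums overlapped, at 63299 to 103104 CPM in KO livers and 96328 to 126375 CPM in WT livers. In LKO livers they were 69939 to 80219 CPM at CT14, against 98742 to 143993 CPM in F livers. At CT2 they were 72652 to 97858 CPM in LKO livers, against 110852 to 116230 CPM in F livers, without overlap at either time. In LKO over F, haptoglobin (Hp), the hemoglobin scavenger, fell by 1.15 ± 0.31 (adjusted p = 0.0499), and the call was lost in 8 of 12 fits without a library.

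Of 15 genes of uptake and membrane transport, 3 were called in KO over WT at CT14, all higher, against 3.15% of all genes called higher, and lost in 4, 4 and 3 of 6 fits without a library. The list's median was 0.29. They were the zinc and iron importer Slc39a8 (0.77 ± 0.19), the metalloreductase Steap4 (1.6 ± 0.40) and the FLVCR-family transporter Flvcr2 (1.51 ± 0.39), with adjusted p of 0.0198, 0.0200 and 0.0226. The metalloreductase Steap2 was at 2.40, 1.29 and 2.75 CPM in LKO livers at CT14, against 6.58, 8.94 and 5.34 CPM in F livers, and at 2.68, 3.12 and 1.95 CPM at CT2, against 3.17, 7.75 and 7.40 CPM. LKO lay below F at both times, and Steap2 fell by 1.47 ± 0.26 over both (adjusted p = 0.00203), in every fit without 1 library but not by limma on TPM with a pseudocount of 0.1 (adjusted p = 0.0576). In KO over WT it fell by 0.97 ± 0.26 (adjusted p = 0.0274), lost in 8 of 12 fits without a library. Steap3, the reductase of transferrin endosomes, was lower at CT14 than at CT2 in LKO livers (-0.89 ± 0.20), in F livers (-0.89 ± 0.20) and in WT livers (-0.83 ± 0.20), with adjusted p of 0.0402, 0.0179 and 0.0269 and calls lost in 5, 3 and 6 of 6 fits. Fst rose in LKO over F by 1.55 ± 0.28 (adjusted p = 0.00227), in every fit without 1 library, and Cisd1, an iron-sulfur protein of the outer mitochondrial membrane, by 0.38 ± 0.11 (adjusted p = 0.0499), which was lost in 11 of 12 fits without a library.

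In heme metabolism, Alas1, the rate-limiting enzyme of heme synthesis in liver, rose at CT14 in both control genotypes. It was at 846, 1360 and 902 CPM in WT livers at CT14, against 227, 69.0 and 63.4 CPM at CT2 (3.11 ± 0.58, adjusted p = 0.00381). In F livers it was at 1153, 389 and 235 CPM at CT14, against 62.3, 67.3 and 91.1 CPM at CT2 (3.01 ± 0.57, adjusted p = 0.00696). Both calls held in every fit without 1 library and were lost when only the groups compared entered the fit (adjusted p = 0.0679 in WT and 0.129 in F). In KO livers it was at 241, 395 and 198 CPM at CT14, against 269, 256 and 313 CPM at CT2, which overlapped. The test of the time effect did not call Alas1 between KO and WT or between LKO and F. The erythroid isoform Alas2 fell in KO over WT at CT14 by 1.16 ± 0.30 (adjusted p = 0.0246, lost in 4 of 6 fits), where erythroid markers, a list that includes it, summed to 790 to 964 CPM in KO livers, against 515 to 661 CPM in WT livers. Fam210b, a mitochondrial protein of heme synthesis, rose in LKO over F by 0.66 ± 0.12 (adjusted p = 0.00306), in every fit without 1 library, and in KO over WT by 0.46 ± 0.12 (adjusted p = 0.0280), lost in 9 of 12. Also over both times in KO over WT, the heme oxygenase Hmox2 (0.42 ± 0.10) and Uros of heme synthesis (0.47 ± 0.13) rose and the heme-sensing repressor Bach1 (-0.84 ± 0.21) fell (adjusted p = 0.0186, 0.0354 and 0.0201), lost in 4, 9 and 2 of 12 fits. Il6ra, the hepatocyte's IL-6 receptor subunit, was higher at CT14 than at CT2 in WT livers by 1.01 ± 0.25 and in F livers by 1.51 ± 0.25 (adjusted p = 0.0276 and 0.00169), lost in 6 and 0 of 6 fits. With only the groups compared in the fit, the F call of Il6ra was also lost (adjusted p = 0.0648).

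Across the 24 libraries, the genes whose log2 CPM was most like each iron gene were listed as a description. They share library, depth and genotype. For Hamp these were Get1 (r = 0.77, rho = 0.80), Trmt44 and Rpl21-ps7. For Hamp2 they were Hpd (r = 0.79, rho = 0.66), Mbl2 and Adss1. Tfrc was most like Naaladl2 (r = 0.86, rho = 0.80), Dnaja1 and Nampt, and Hfe most like Copz2 (r = 0.88, rho = 0.83), D630039A03Rik and Dennd1a. Tfr2 was most like Habp2 (r = 0.87, rho = 0.88), Uroc1 and Lcat, and Slc40a1 most like Slc8a1 (r = 0.82, rho = 0.80), Gbp2b and Mrc1. Fth1 was most like Aspscr1 (r = 0.89, rho = 0.77), Fam234a and Cyp4f13, and Bmp6 most like Fam167b (r = 0.76, rho = 0.77), Fhod3 and Cables2. Among the 9 genes themselves, the highest correlation was between Fth1 and Ftl1 (r = 0.71, rho = 0.65), and the lowest between Tfrc and Hfe (r = -0.57, rho = -0.52).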

How the data were processed

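Polyadenylated RNA from mouse liver was sequenced from stranded libraries, 3 for each of 8 groups, and every column was mapped to its sample by title. The authors deposited estimated counts per Ensembl gene, not normalized, and a second table in TPM. The authors also deposited their own DESeq2 comparisons, with the mean signal over libraries, the log2 fold change, a Wald score, and p-values. The submitters' processing notes name GRCm39 as the build and StringTie (1.3.1), HISAT2 (2.2.1) and fastp (0.23.2) as tools. Not given in the sources used here were the counting's strand setting and the authors' comparison model.

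Estimated counts, once rounded, were fitted in edgeR 4.0.16 (R 4.3.3) with TMM scaling, filterByExpr (minimum count 10, minimum total 15) and a robust quasi-likelihood model of 8 group means over 24 libraries. Adjusted p (Benjamini-Hochberg over 20514 genes) under 0.05 was a call in each of 14 contrasts. The 95% intervals use the model's error, and n is 3 per group. Alternatives were DESeq2 1.42.0, limma 3.58.1 on log2 TPM with a pseudocount of 1 or 0.1, other scaling, no filter, counts divided by 4, a replicate block, only the groups compared, and libraries left out. The model was tested on simulated data with the same spread set for every gene. That test does not cover genes that spread as widely as Hamp and Hamp2. The members and the lists were chosen with earlier results of these data known. Named list genes were at most the 6 with the smallest p per list and contrast among those called, and likeness was the highest Pearson's r of log2 CPM with a prior count of 2. Erfe, Nog, Il6 and Ftmt were filtered out, and 1 called list gene is not reported here. Sequences and positions come from GRCm38 references and were not joined to the counts, which are on GRCm39. The depth gives counts of 69 to 542177 per library for the 9 genes.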

Additional observations from a re-analysis of the deposited data

Results flagged for a closer look

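For 4 genes of the iron lists the time effect, CT14 over CT2, differed between KO and WT by the test of that difference, out of 104 tested and against 0.799% of all genes. For Fdx1 it was -1.19 ± 0.18 (adjusted p = 0.00189): KO livers were at 77.7, 71.9 and 73.8 CPM at CT14, against 112, 94.5 and 98.5 CPM at CT2, whereas WT livers were at 135, 155 and 132 CPM at CT14, against 83.1, 75.5 and 93.9 CPM at CT2. For Id2 it was 1.37 ± 0.25 (adjusted p = 0.00608): KO livers were at 92.4, 95.5 and 95.5 CPM at CT14, against 87.2, 87.3 and 80.6 CPM at CT2, whereas WT livers were at 68.6, 53.5 and 67.5 CPM at CT14, against 203, 101 and 138 CPM at CT2. Both differences passed in every fit that left out 1 library, and that of Id2 was lost by limma on TPM (adjusted p up to 0.0638). For Glrx5 it was -0.81 ± 0.18 (adjusted p = 0.0350), lost in all 12 fits without a library. For Fst it was 2.36 ± 0.55 (adjusted p = 0.0464), lost in 10 of 12 such fits, at levels of 3.28 to 5.60 CPM in KO livers at CT14, against 1.01 to 2.36 CPM at CT2, and of 1.01 to 2.23 CPM in WT livers at CT14, against 2.71 to 3.62 CPM at CT2.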

How the results depend on the processing

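No value of the 9 genes that was called in either fit changed sign under any of the 11 other settings or the 24 fits without 1 library. Of 2366 values called in neither fit, 181 differed in sign. KO over WT, averaged over both times, went to 1 called gene (Hfe) with DESeq2, with limma on TPM at either pseudocount, with the 2 genotypes alone in the fit and without the 3 libraries low in Ddx3y, against 0 as reported, and to 0 to 1 without 1 library. KO over WT at CT14 had 0 called genes without the filter on low counts and without KO CT2 replicate 2 and KO CT14 replicate 1, against 1 as reported, and 0 to 1 without 1 library. With these groups alone in the fit it kept 1 call, but of Tfrc and not of Hfe (adjusted p = 0.0634). CT14 over CT2 had 1 call with DESeq2 in WT and in LKO livers, against 0 as reported. In F livers it had 0 without the filter (adjusted p of Tfrc 0.0557), with the groups alone in the fit (0.216) and without the F libraries that held pancreatic transcripts, and 2 with DESeq2 and without the 3 libraries low in Ddx3y, against 1 as reported, and 0 to 1 without 1 library. F over WT had 1 call (Slc40a1, adjusted p = 0.0284) with the groups alone and 2 (Slc40a1 and Hamp, adjusted p = 0.0252 and 0.0263) without the 3 libraries low in Ddx3y, against 0 as reported, and 0 to 1 without 1 library. The cause was not tested, except that leaving out the filter adds tested genes and leaving out libraries removes samples.

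Replicate numbers gave no sign of pairing between samples, and the labels name none. A pairing that does not shift many genes together would not show here. Same-numbered libraries of different groups had correlations of -0.15 to 0.31 (median -0.01 over 84 pairs), against a median of 0.00 over 168 pairs with other numbers. With a replicate block, Hfe in KO over WT at CT14 was 0.56 (adjusted p = 0.0301) and Tfrc by time in F was 2.07 (adjusted p = 0.0286), and no count of calls moved. On the TPM scale with a pseudocount of 0.1, the median of all genes shifted by 0.17 in KO over WT and by 0.22 in LKO over F at CT14, against which the iron genes' values on that scale are to be read. For Hamp, Hamp2 and Tfrc the spread within groups limits what the comparisons can show.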
